A study of Bos taurus with 4 samples.

Results

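Adipocyte nuclei of the subcutaneous fat on the back of 2 beef cattle were examined in single-nucleus RNA sequencing libraries. A nucleus was taken as an adipocyte nucleus when it had at least 200 detected genes and at least 1 UMI (a counted mRNA molecule) of at least 3 of the 9 genes PLIN1, PLIN4, LIPE, CIDEC, ACACA, GPAM, PNPLA2, TRARG1 and PPARG. It also had to hold 0 UMIs of PDGFRA (progenitors), PECAM1 and CDH5 (endothelium), and CSF1R and MRC1 (macrophages). This rule found 190 adipocyte nuclei among 7009 kept nuclei, 153 of 881 in the library of animal 1 and 37 of 6128 in that of animal 2. The same rule, applied to the intramuscular fat of the same animals for comparison, found 763 of 1777 nuclei in animal 1 and 45 of 63 in animal 2. The animals came from a commercial feedlot and were untreated, each giving 1 library per depot. Their labels call them cows and the series' design text steers, and give their diet, age and breed as unknown. Nuclei were freed by Dounce homogenisation of tissue and sequenced with 10x Genomics 3' chemistry on an Illumina NovaSeq.

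White adipocytes hold energy as triglyceride in a single large lipid droplet, which perilipins coat and CIDE proteins enlarge. They make fatty acids from acetate or glucose or take them up from lipoproteins, esterify them through the GPAM, AGPAT and DGAT steps, and release them through the lipases encoded by PNPLA2, LIPE and MGLL. PPARG is the nuclear receptor that drives this programme, and the cells also signal to other organs through leptin and adiponectin. In ruminants adipose tissue is the main site of fatty acid synthesis.

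Depth and foreign RNA differed between the libraries. The adipocyte nuclei held 270217 UMIs in all in the subcutaneous library of animal 1 and 43288 in that of animal 2, against 1426528 and 66904 in the intramuscular libraries. Genes of the skeletal muscle contractile apparatus, which adipocytes lack, took 2.89% of the UMIs of the subcutaneous adipocyte nuclei in animal 1 and 11.6% in animal 2, against 0.00960% and 0.0224% in the intramuscular ones. In the subcutaneous endothelial nuclei, a type that should lack these genes too, they took 1.98% and 11.8%. The 37 contractile genes were set aside, and levels below are CPM, the UMIs of a gene scaled to a total of 1000000 over all other genes. Libraries shared at most 2 barcodes, none of them of an adipocyte nucleus.

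Most adipocyte transcripts that played no part in the choice of the nuclei were also higher in them. A list of 20 such transcripts, 19 of them among the features, took 1.59% of UMIs in the adipocyte nuclei of animal 1 and 0.707% in those of animal 2, against 0.617% and 0.0613% in the other kept nuclei. All 153 adipocyte nuclei of animal 1 and 33 of the 37 of animal 2 held at least 1 of these UMIs. Among the other kept nuclei 105 of 728 and 4406 of 6091 held none. AQP7, the channel through which glycerol leaves the cell, had 976 and 627 CPM in adipocyte nuclei of animals 1 and 2, against 126 and 33.8 CPM in the other kept nuclei. LEP, the leptin gene, had 271 and 418 CPM, against 58.1 and 6.42 CPM. The adiponectin gene ADIPOQ had 145 and 52.2 CPM, against 25.96 and 4.39 CPM, resting on 38 and 2 UMIs in adipocyte nuclei. Of the 19 genes, 16 were higher in the adipocyte nuclei in both libraries. Over all 13923 genes with a UMI in the subcutaneous nuclei 3652 were, and over the 4042 tested between the depots below 2126 were. CFD and SLC7A10 were lower in both, CFD with 11.4 and 0 CPM, against 76.7 and 10.1 CPM. LPIN1 was lower in animal 1 only, with 45.7 and 183 CPM, against 53.2 and 47.6 CPM. FABP4 and CD36, a fatty acid carrier and a fatty acid transporter that capillary endothelium also uses, stood out less in animal 1. FABP4 had 5629 CPM in adipocyte nuclei of animal 1 against 3622 CPM in endothelial nuclei, and in animal 2 it had 2377 CPM against 131 CPM. Because the nuclei were chosen by transcripts of these same libraries, all levels against other nuclei are descriptions without a test.

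**Figure D1:**
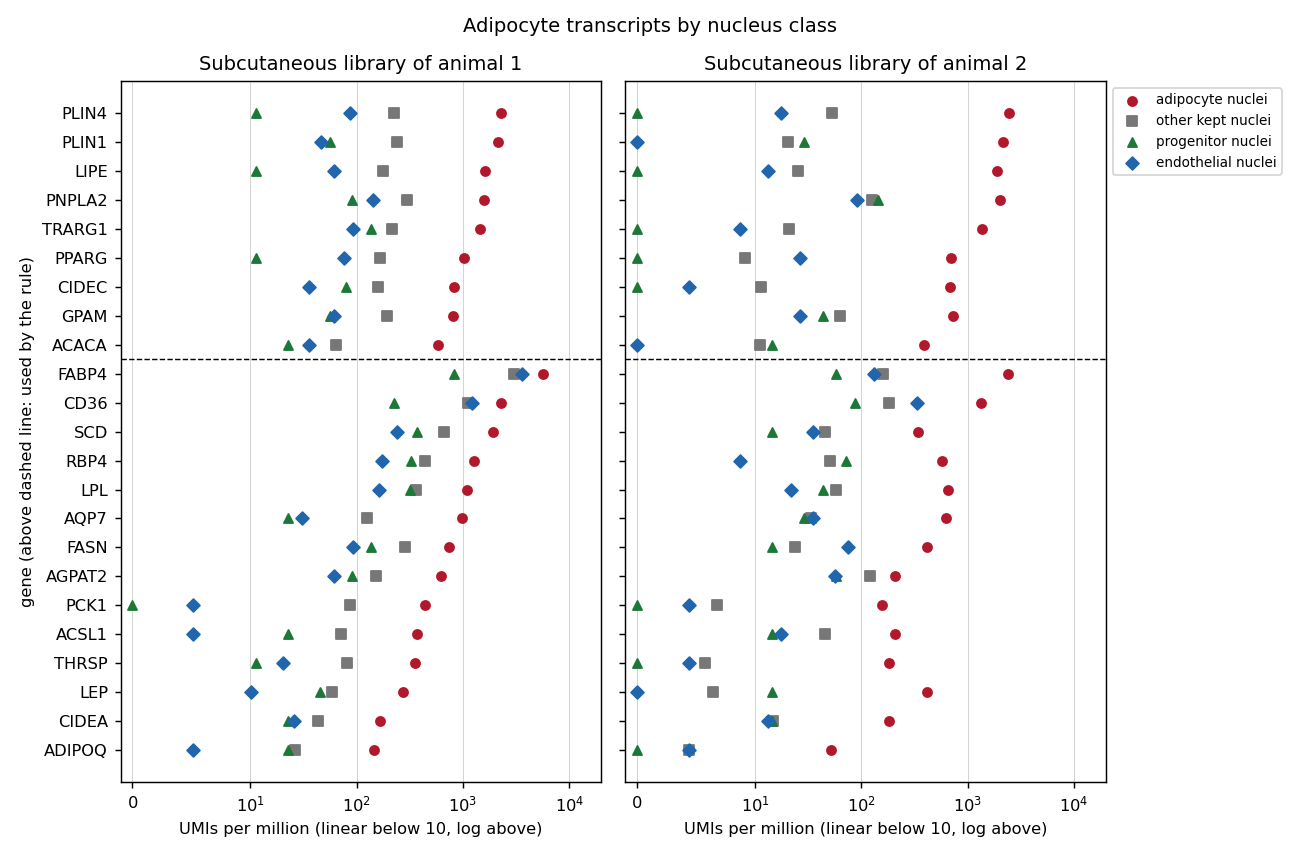
Level of adipocyte genes in CPM (horizontal axis, linear below 10 and logarithmic above) in adipocyte, other kept, progenitor and endothelial nuclei of the 2 subcutaneous libraries. Genes above the dashed line chose the adipocyte nuclei, and genes below it did not. In animal 2 FABP4 lay at 2377 in adipocyte nuclei and at 131 in endothelial nuclei, and in animal 1 at 5629 and 3622.

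Shares of nuclei with a UMI were also compared at equal depth. Each nucleus was thinned to 300 UMIs, to which no nucleus was too shallow. AQP7 was detected in 26.1% (Clopper-Pearson 95% interval 19.4 to 33.9) and 10.8% (3.03 to 25.4) of adipocyte nuclei, against 2.40% (0.498 to 6.85) and 1.65% (0.452 to 4.18) of endothelial nuclei. Before thinning these shares were 64.1% and 27.0% in adipocyte nuclei, against 4.80% and 3.31% in endothelial nuclei. Detected FABP4 reached 66.0% (57.9 to 73.5) and 32.4% (18.01 to 49.8) of adipocyte nuclei, against 29.6% (21.8 to 38.4) and 2.89% (1.17 to 5.87) of endothelial nuclei, and unthinned shares were 90.8% and 54.1% against 60.0% and 4.96%. ADIPOQ was detected in 3.92% (1.45 to 8.34) of the thinned adipocyte nuclei of animal 1, against 0 of 125 endothelial nuclei, which allows up to 2.91% by the same interval. Its 2 UMIs in animal 2 were too few to compare. Median depths were 1533 and 974 UMIs in adipocyte nuclei, against 933 and 693 in endothelial and 782.5 and 517 in all other kept nuclei.

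More genes of fatty acid synthesis were higher in the adipocyte nuclei than were lower. Of 20 outside the rule, 12 were higher than in other kept nuclei in both libraries and 6 were lower in both. Over all 13923 genes with a UMI in the subcutaneous nuclei these counts were 3652 and 5061, with 1779 genes lacking a UMI in adipocyte nuclei. Over the 4042 genes with enough UMIs to be tested between the depots below, they were 2126 and 875. The list counts are near the latter share, and nothing is read from them. ACLY, the ATP citrate lyase gene, was among the 6 lower genes of fatty acid synthesis, with 72.4 and 26.1 CPM in adipocyte nuclei, against 105 and 26.3 CPM. Its level in adipocyte nuclei of animal 2 was 1 UMI, too few to place it below the other nuclei there. A 4-fold difference was looked for in genes with at least 20 UMIs in the adipocyte nuclei, a minimum that passes genes high in these nuclei more readily. Of 1891 such genes, 129 (6.82%) were at least 4-fold higher than in other kept nuclei in both libraries, and nothing is read from the counts of list members that follow. Of the fatty acid synthesis genes 7 passed the minimum, and 3 reached the fold. These were ELOVL6, an elongase, THRSP, a regulator of lipogenesis, and MLXIPL, which encodes the carbohydrate-responsive factor ChREBP. MLXIPL had 450 and 496 CPM in adipocyte nuclei of animals 1 and 2, against 60.6 and 15.2 CPM in other kept nuclei. THRSP had 354 and 183 CPM, against 80.4 and 5.74 CPM. Fatty acid synthase, FASN, had 736 and 418 CPM, against 287 and 23.6 CPM, and the desaturase gene SCD had 1932 and 340 CPM, against 666 and 45.6 CPM. Neither FASN nor SCD reached 4-fold in animal 1, where the levels in other nuclei were high. Of 16 genes of triglyceride synthesis outside the rule, 6 were higher in both libraries and 0 were lower in both. Of the 5 past the minimum, 3 reached the fold, namely the acyltransferases GPAT3 and DGAT1 and PCK1, which supplies the glycerol backbone. DGAT1 had 263 and 287 CPM, against 64.3 and 18.6 CPM, while GPD1, which also makes glycerol phosphate and is abundant in muscle, had 690 and 705 CPM, against 283 and 1385 CPM. DGAT2 was not among the feature names.

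Genes of lipolysis were higher in the adipocyte nuclei for the most part. Of 15 outside the rule, 13 were higher than in other kept nuclei in both libraries and 0 were lower in both. Over the 4042 genes tested between the depots these counts were 2126 and 875. Of the 7 lipolysis genes past the minimum, AQP7, PDE3B and PTGER3 were at least 4-fold higher in both libraries. PDE3B, the phosphodiesterase through which insulin lowers cyclic AMP, had 564 and 679 CPM in adipocyte nuclei, against 80.4 and 9.79 CPM in other kept nuclei. PTGER3, the inhibitory prostaglandin E2 receptor EP3, had 252 and 340 CPM, against 33.4 and 4.39 CPM, and no UMI in endothelial, progenitor or macrophage nuclei of either library. The beta-3 adrenergic receptor gene ADRB3 had only 11 and 1 UMIs in adipocyte nuclei. MGLL, the last lipase of the chain, had 640 and 784 CPM, against 263 and 133 CPM. The lipase genes LIPE and PNPLA2 helped choose the nuclei, so their levels were shaped by the rule and nothing is read from them. LIPE had 1604 and 1881 CPM, against 177 and 25.3 CPM, and PNPLA2 1566 and 2038 CPM, against 299 and 126 CPM.

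Uptake, hormone and receptor genes were mixed. Of 18 uptake genes 7 were higher in both libraries and 5 lower in both. Among 15 adipokines outside the rule 6 were higher and 3 lower. Over the 4042 genes tested between the depots 2126 were higher and 875 lower, so nothing is read from these counts. ACSL1, which activates fatty acids, was the 1 of 5 uptake genes past the minimum to reach 4-fold in both libraries (370 and 209 CPM, against 71.7 and 45.3 CPM). Lipoprotein lipase, LPL, had 1090 and 653 CPM, against 365 and 57.8 CPM. FABP5, a carrier found in endothelium, was instead low, at 114 and 78.4 CPM in adipocyte nuclei against 1191 and 238 CPM in other kept nuclei and 2028 and 1444 CPM in endothelial nuclei. GHR, the growth hormone receptor gene, had 1200 and 1358 CPM in adipocyte nuclei, against 237 and 150 CPM in other kept nuclei, above 4-fold in both. Among adipokines LEP alone passed that fold, as 1 of 5, and the retinol-binding protein gene RBP4 had 1258 and 575 CPM, against 438 and 50.3 CPM. RXRG, a partner of nuclear receptors, was the 1 of 9 adipogenic factors past it, with 20 and 6 UMIs. PDE3B was the 1 of 7 insulin and glucose genes. The insulin-responsive glucose transporter gene SLC2A4 had 76.2 and 157 CPM, against 40.8 and 60.5 CPM, from 20 and 6 UMIs.

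Among the genes at least 4-fold higher in both libraries, 15 named ones outside the rule were chosen for the largest mean ratio, so their ratios describe that choice, and the 95% counting intervals show the precision. HIF3A, of the hypoxia-inducible factor family, had 232 and 1123 CPM in adipocyte nuclei of animals 1 and 2, against 18.5 and 9.12 CPM in other kept nuclei, ratios of 12.5 (7.04 to 23.7) and 123 (74.4 to 207). No UMI of HIF3A was seen in progenitor, endothelial or macrophage nuclei of either library. KLB, the co-receptor beta-klotho of the hormone FGF21, had 293 and 209 CPM, against 33.4 and 3.72 CPM, ratios of 8.79 (5.61 to 14.2) and 56.3 (19.6 to 154). ADIG, the small adipogenin of fat cells, had 354 and 287 CPM, against 54.4 and 4.05 CPM. ABCD2, a peroxisomal transporter of very long-chain fatty acids, had 217 and 157 CPM, against 25.96 and 1.69 CPM. ADTRP, a hydrolase of branched fatty acid esters, had 259 and 235 CPM, against 24.7 and 4.05 CPM. All these genes were low in the other nuclei of animal 2, and the ratios of animal 2 were the larger ones throughout. Contractile genes took 25.3% of the UMIs of those other nuclei in animal 2, against 7.34% in animal 1. Their share in the median such nucleus was 28.1%, against 2.425%. What this muscle RNA does to the ratios was not tested.

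The other 10 of those genes were B3GNT6, a glycosyltransferase, CYP2B6, a cytochrome P450, PRR5L, a partner of mTOR complex 2, ASGR1, a subunit of the asialoglycoprotein receptor known from liver, ACER3, a ceramidase, GRHL1, a grainyhead-like transcription factor, SRCIN1, an inhibitor of Src kinase, ANKEF1, and PTGER3 and PDE3B from above. CYP2B6 had 453 and 183 CPM in adipocyte nuclei, against 27.2 and 2.36 CPM in other kept nuclei, the second from 7 UMIs in each. ACER3 had 629 and 679 CPM, against 76.7 and 8.44 CPM. PRR5L had a ratio of 6.16 (3.28 to 12.03) in animal 1 and 193 (70.9 to 608) in animal 2. Of 97 named genes found in the gene table at hand, 34 overlap another gene, so that some of their UMIs may be of that gene. PRR5L, ACER3, PDE3B and PTGER3 are among them, as are PLIN1, PLIN4, PPARG, GHR, MGLL and CIDEA.

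**Figure D2:**
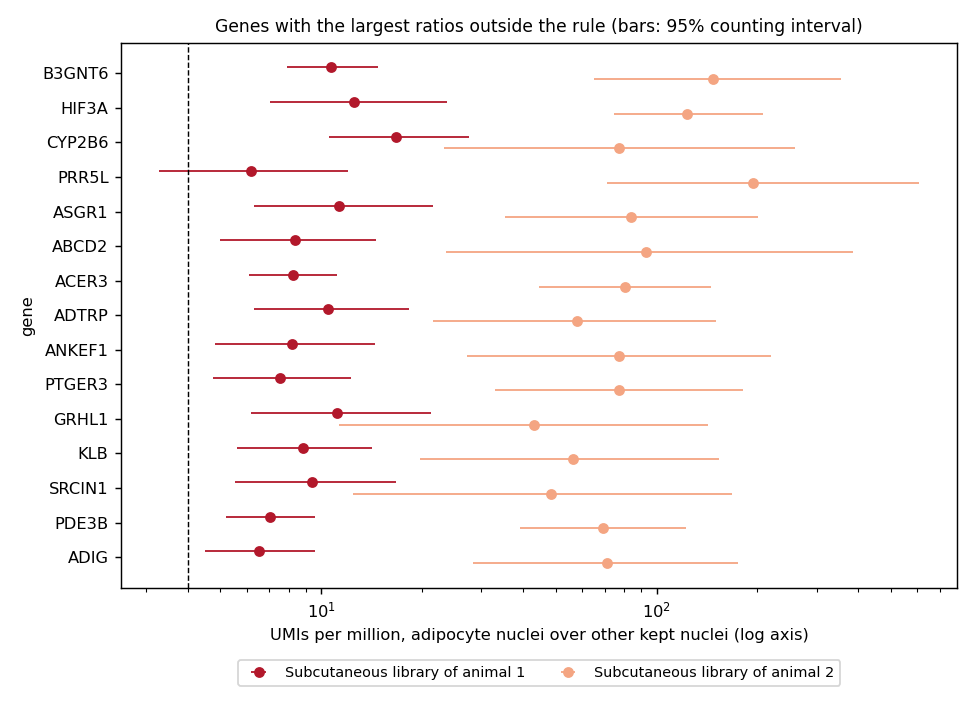
Ratio of CPM in subcutaneous adipocyte nuclei to that in the other kept nuclei of the same library (log axis) for the 15 named genes with the largest mean ratio outside the rule, with 95% counting intervals and a dashed line at 4-fold. HIF3A lay at 12.5 in animal 1 and 123 in animal 2, and the ratios of animal 2 lie to the right of those of animal 1.

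Genes of the extracellular matrix differed in direction. COL3A1, a fibrillar collagen gene, had 10812 and 2743 CPM in adipocyte nuclei of animals 1 and 2, against 9437 and 4017 CPM in progenitor and 509 and 162 CPM in endothelial nuclei. DCN, the proteoglycan decorin, had 229 and 157 CPM in adipocyte nuclei, against 6618 and 3034 CPM in progenitor nuclei. COL1A1 had 240 and 131 CPM, against 3755 and 1026 CPM in progenitor nuclei. COL3A1 in adipocyte nuclei thus exceeded the progenitor level in animal 1 and lay below it in animal 2, while DCN and COL1A1 lay below it in both. Of 16 basement membrane genes 11 were higher in both libraries and 4 lower in both. Over the 4042 genes tested between the depots these counts were 2126 and 875, and nothing is read from those of the list. Of the 9 basement membrane genes past the minimum, 1 was at least 4-fold above the other nuclei in both libraries. This was COL15A1, at 1779.7 and 731 CPM, against 308 and 97.6 CPM. COL4A1, which encodes the main basement membrane collagen, had 2058 and 1489 CPM, against 941 and 183 CPM, and the laminin gene LAMA4 had 1818 and 1280 CPM, against 603 and 94.2 CPM. MCAM was the 1 of 2 mural cell markers with enough UMIs to reach the fold. Of all 14 mural cell markers, 2 were higher in both libraries and 10 were lower in both. Over all 13923 genes with a UMI in the subcutaneous nuclei these counts were 3652 and 5061.

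Few genes were low in adipocyte nuclei by the same fold. Of 488 genes abundant enough to show it, 8 (1.64%) were at least 4-fold lower in both libraries, among them genes of antigen presentation and of muscle. IGFBP3, a binding protein of insulin-like growth factors, had 114 and 26.1 CPM in adipocyte nuclei, against 1829 and 329 CPM in other kept nuclei and 6093 and 2927 CPM in endothelial nuclei, the level in adipocyte nuclei of animal 2 being 1 UMI. JSP.1, an MHC class I gene, had 149 and 52.2 CPM, against 1540 and 413 CPM, and its partner chain B2M had 274 and 287 CPM, against 2483 and 1212 CPM. Both were also highest in endothelial nuclei, which the rule kept out through PECAM1 and CDH5. NR4A1, an immediate early receptor, had 274 and 131 CPM, against 1557 and 621 CPM. PLN, the inhibitor of the calcium pump of muscle, MYL6B, a myosin light chain gene, CAPN3, the muscle calpain, and PARVB were the others. They rested on few UMIs in adipocyte nuclei: PLN on 12 and 3, MYL6B on 34 and 5, CAPN3 on 4 and 2, and PARVB on 8 and 9. On a separate list of muscle fibre genes outside the contractile apparatus, 0 of 23 that could show the fold did so. Of all 33 on it, 31 were lower in both libraries. Over all 13923 genes with a UMI in the subcutaneous nuclei 5061 were, and over the 4042 tested between the depots 875 were.

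Adipocyte nuclei differed among themselves in how much of either signal they held. In animal 1 the contractile share was 0.786% of UMIs in the median adipocyte nucleus and 28.1% in the highest, and the tenth of nuclei with most of these UMIs held 70.6% of them. In animal 2 it was 12.8% in the median nucleus, with a lowest of 2.25% and a highest of 34.7%. Nuclei with 7 to 9 rule markers held less of the contractile and more of the adipocyte transcripts than nuclei with 3 or 4. Nuclei with 7 to 9 rule markers (63 in animal 1, 7 in animal 2) gave 1.83% and 1.43% of UMIs to the adipocyte list and 1.72% and 3.33% to the contractile genes. Nuclei with 3, just inside the threshold (19 and 10), gave 1.03% and 0.325% to the adipocyte list and 10.5% and 21.3% to the contractile genes. Nuclei with 4 (17 and 7) gave 0.907% and 0.235% to the adipocyte list, less than those with 3, and 8.95% and 13.5% to the contractile genes. In animal 2 macrophage nuclei gave 0.250% to the adipocyte list, endothelial nuclei 0.0656% and progenitor nuclei 0.0418%. The list thus did not set nuclei with 3 or 4 markers in animal 2 apart from macrophage nuclei. Nuclei with 2, just outside the threshold (46 and 56), gave 0.423% and 0.100% to the adipocyte list and 13.6% and 22.6% to the contractile genes. Depth moved with these values: median UMIs were 2450 and 1781 with 7 to 9 markers, 999 and 568 with 3, and 936 and 578.5 with 2, and its part was not tested. With 3, with 4, with 5 or 6 and with 7 to 9 markers LEP had 171, 342, 298 and 262 CPM in animal 1, and 0, 143, 536 and 633 CPM in animal 2 on 0, 1, 7 and 8 UMIs.

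**Figure D3:**
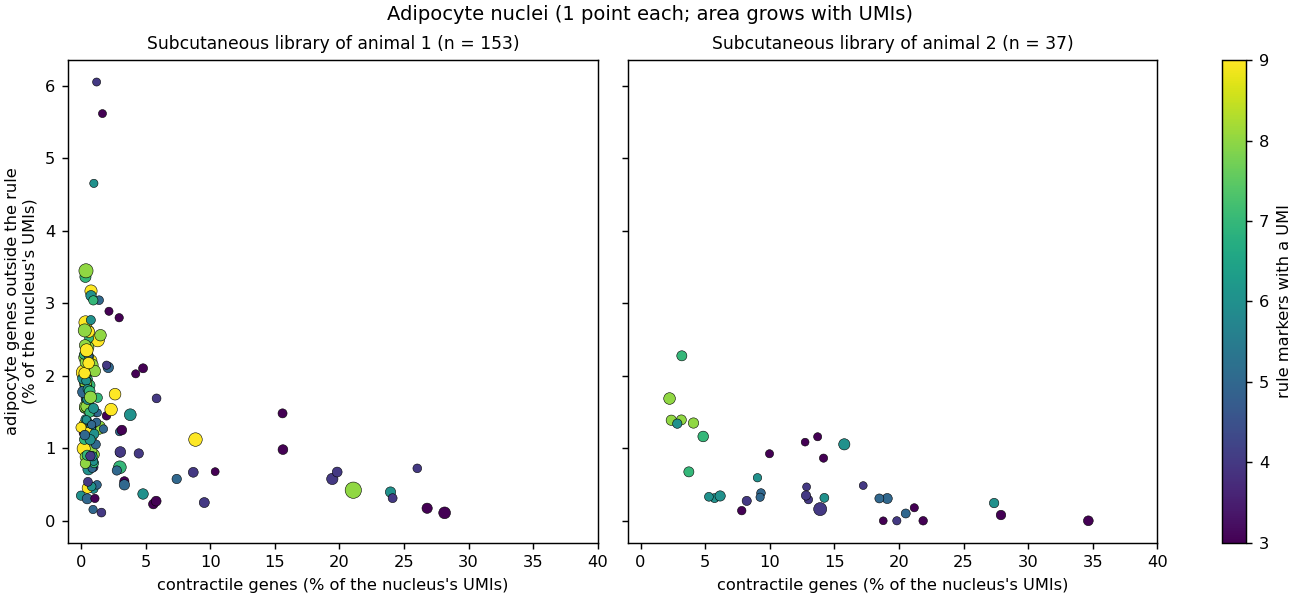
Each point is 1 subcutaneous adipocyte nucleus, with the share of its UMIs from contractile genes (horizontal) and from 19 adipocyte genes outside the rule (vertical), coloured by the number of rule markers with a UMI. Most nuclei of animal 1 lie near its median contractile share of 0.786%, and those of animal 2 spread from 2.25% to 34.7%.

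Adipocyte nuclei made up less of the subcutaneous than of the intramuscular libraries. They were 17.4% (Clopper-Pearson 95% interval 14.9 to 20.03) and 0.604% (0.425 to 0.831) of the nuclei kept from subcutaneous fat of animals 1 and 2, against 42.9% (40.6 to 45.3) and 71.4% (58.7 to 82.1) in the intramuscular ones. The means were 8.99% ± 11.9 and 57.2% ± 20.1 (SD, n = 2 each). The difference of -48.2 percentage points was -25.6 in animal 1 and -70.8 in animal 2, and its exact two-sided permutation p was 0.33, the smallest that 2 libraries against 2 allow. Intervals cover counting error only. How tissue was taken and nuclei recovered cannot be told apart from the depot.

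Between the depots, muscle genes were the largest named group among those that differed in the summed adipocyte nuclei. Of 4042 genes, edgeR's quasi-likelihood test (Benjamini-Hochberg adjusted) put 40 (0.990%) higher in the subcutaneous adipocyte nuclei and 0 (0%) lower, and 103 and 45 had an unadjusted p under 0.05. Of the 40, 13 are on the list of muscle fibre genes, of which 18 were tested, and 7 have no name in the files. Other muscle genes, such as DES and MYL6B, were called too but are not on that list. SLN, EEF1A2, PYGM and PPP1R27 had no UMI in the intramuscular adipocyte nuclei. SLN, the sarcolipin of the muscle calcium pump, had 305 and 2743 CPM in the subcutaneous libraries of animals 1 and 2, at least 6.80-fold higher (adjusted p = 0.0119). The glycogen phosphorylase gene PYGM had 187 and 1332 CPM, at least 4.16-fold higher (adjusted p = 0.0140). CKM, the muscle creatine kinase gene, had 781 and 4911 CPM in subcutaneous against 0.701 and 0 CPM in intramuscular adipocyte nuclei, the second pair resting on 1 UMI. SLN, PYGM and CKM were each higher in animal 2 than in animal 1. Not every called gene was: ASB5 had 987 and 183 CPM and CSRP3 427 and 340 CPM in the subcutaneous libraries. Also past the threshold was ENSBTAG00000053626, a gene the files leave without a name, at 2691 and 6818 CPM against 0 and 0 CPM. With 1 library per animal and depot, the p-values rest on the spread between the 2 libraries of a depot, in part shared over genes. Animal, depth and muscle RNA cannot be told apart in that spread.

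All 40 called genes were more abundant in the other kept nuclei than in the adipocyte nuclei of both subcutaneous libraries, as were 875 of the 4042 genes tested. Every one of the 40 also had UMIs in endothelial nuclei of both libraries. Their median level there was 0.761 times that of adipocyte nuclei in animal 1 and 1.06 times in animal 2. Neither the count nor the median was taken over all genes tested, so nothing is read from them. Of the 2126 genes that were instead more abundant in adipocyte nuclei than in the other nuclei of both libraries, edgeR called 0, with 19 at an unadjusted p under 0.05. In nuclei whose contractile share was at or below that of the median endothelial nucleus of their library (95 in animal 1, 17 in animal 2, a choice made after seeing the data), edgeR called 0 of 3181 genes, with 64 at an unadjusted p under 0.05. Only 6 of the 40 genes still had enough UMIs to be tested there, all 6 with a positive fold change and 5 at an unadjusted p under 0.05. Choosing nuclei by low muscle RNA itself lowers these genes. Together the 40 had 1677 and 21090 CPM in those subcutaneous nuclei, against 95.3 and 44.9 CPM in the intramuscular ones. The 40 were called on sums that include these same nuclei, so nothing is read from these levels or from the 6 tested. Left without 1 library, the test called 35 (subcutaneous, animal 1), 28 (subcutaneous, animal 2), 229 (intramuscular, animal 1) and 132 genes (intramuscular, animal 2). Of these, 0, 0, 38 and 44 were lower in the subcutaneous adipocyte nuclei.

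Lipid and adipokine genes of the adipocyte nuclei held no call between the depots. Of 15 tested adipocyte genes outside the rule edgeR called 0, with 3 at an unadjusted p under 0.05, and the median log2 fold change was -0.99, against -0.07 over all genes tested. The 14 genes of fatty acid synthesis had a median of -0.35, the 8 of triglyceride synthesis -0.91, the 11 of lipolysis -0.38 and the 17 adipogenic factors -0.28, each with 0 calls. PCK1 had 438 and 157 CPM in the subcutaneous libraries of animals 1 and 2, against 1108 and 1286 CPM in the intramuscular ones, a log2 fold change of -2.06 (SE 0.88). SCD had 1932 and 340 CPM, against 6464 and 777 CPM, and the depots overlapped because animal 1 was high in both. CIDEA, which enlarges lipid droplets, had 164 and 183 CPM, against 396 and 2063 CPM (log2 fold change -2.88, SE 1.00). For the glucose transporter regulator TRARG1 of the rule the values were 1452 and 1358 CPM, against 663 and 1271 CPM. In intramuscular fat the adipocyte list took 2.94% and 1.54% of UMIs in adipocyte nuclei, against 2.36% and 1.19% in other kept nuclei. Subcutaneous other kept nuclei gave it 0.617% and 0.0613%. Endothelial nuclei gave it 2.81% in the intramuscular library of animal 1, against 0.562% and 0.0656% in the subcutaneous ones. What adipocyte RNA outside adipocyte nuclei does to the depot values was not tested.

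ADAMTS4, a matrix protease gene, came nearest to a call on the low side. It had 11.4 and 0 CPM in subcutaneous adipocyte nuclei, from 3 and 0 UMIs, against 140 and 449 CPM in intramuscular ones (log2 fold change -4.94, SE 1.07, adjusted p = 0.0520 by edgeR's quasi-likelihood test). It was called in 8 of 15 alternatives, among them DESeq2, RLE factors, the animal as a block and each fit without an intramuscular library, and over the 15 the adjusted p ran from 1.66e-05 to 1.00. MYOC and CPXM1 followed, with 15.2 and 0 against 109 and 149.5 CPM and with 22.9 and 0 against 111 and 179 CPM. The patterning factor TBX3 had 145 and 157 CPM, against 596 and 1346 CPM (log2 fold change -2.77, SE 0.90). Of 9 tested HOX genes, which mark position along the body axis, edgeR called 0, and their median log2 fold change was 0.52. HOXA9 had 64.8 and 470 CPM, against 51.9 and 74.8 CPM. HIF3A, high against the other nuclei, went with the animal more than with the depot, at 232 and 1123 CPM in subcutaneous against 20.3 and 1211 CPM in intramuscular adipocyte nuclei.

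**Figure D4:**
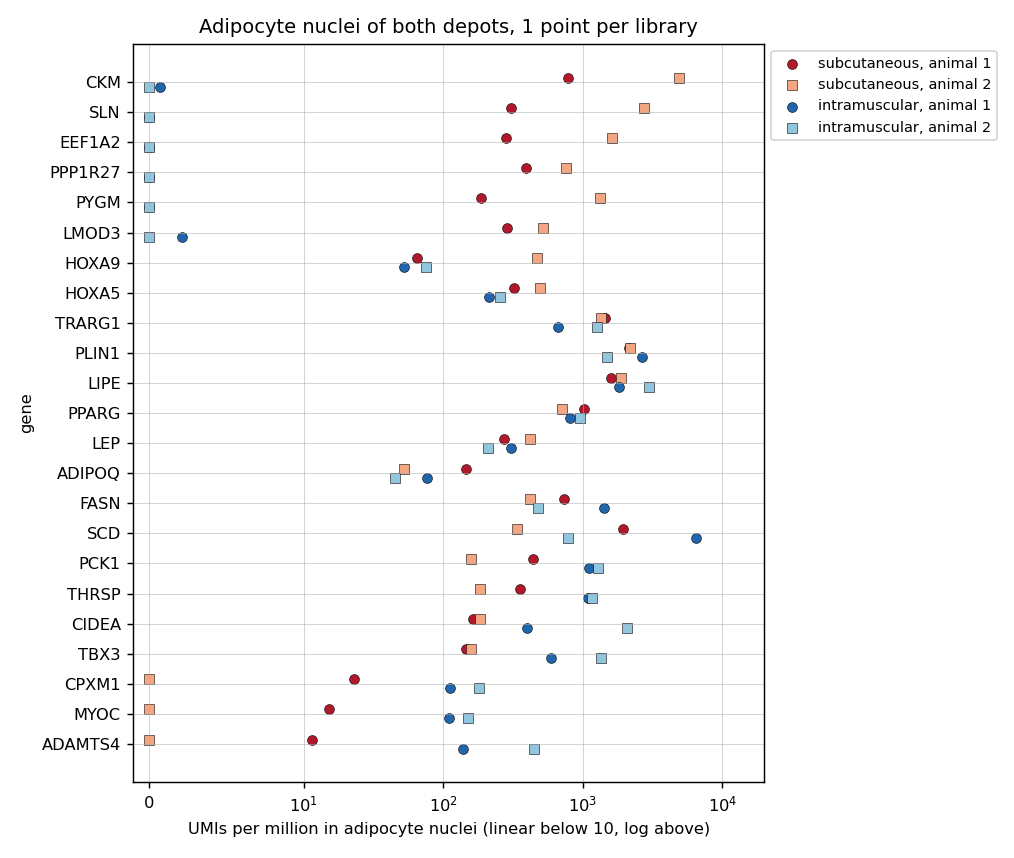
CPM in the adipocyte nuclei of each library (horizontal axis, linear below 10 and logarithmic above), with subcutaneous libraries in red and orange and intramuscular ones in blue. The muscle genes at the top lie at or near 0 in intramuscular nuclei, adipocyte genes in the middle overlap in part (TRARG1, PCK1, THRSP and CIDEA do not), and ADAMTS4 at the bottom has 11.4 and 0 in subcutaneous against 140 and 449 in intramuscular nuclei.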

How the data were processed

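The deposited files are 1 matrix of raw UMI counts per library, made with Cell Ranger 6.0.1 per the file headers and with genome build ARS-UCD1.2 per the submitters' processing notes. Annotation release and handling of intronic reads were not given in the sources used here. Matrices hold 21861 features, 4251 without a gene name. The gene table at hand is of another build and served only to see overlaps. Barcodes with at least 200 genes were kept. No doublet caller was run, and the 5 excluded genes remove some doublets. Progenitor, endothelial and macrophage nuclei had a UMI of PDGFRA, of PECAM1 or CDH5, or of CSF1R or MRC1, none of the other 2 types' genes and fewer than 3 rule markers. CPM are UMIs scaled to 1000000 without the 37 contractile genes, a count of 0 was read as up to 3 counts, and a ratio has an exact conditional 95% counting interval. Intervals and floors cover counting error only. Against other nuclei a gene had at least 20 UMIs over the adipocyte nuclei and 5 per library, or, when lower, 50 over the others.

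Depots were compared on counts summed over the adipocyte nuclei of each library with edgeR 4.0.16 (filterByExpr, TMM, quasi-likelihood F test) in R 4.3.3, adjusted by Benjamini-Hochberg over all genes at 0.05. Fold changes are log2 of subcutaneous over intramuscular, and the SE is their size divided by the root of F. The 9 marker genes of the rule stayed in the fit. The fit was tested on simulated data. The samples of a number come from the same animal by their labels, and the deviations of same-animal sums correlated at 0.0692 over 4042 genes. Alternatives were the animal as a block, RLE, DESeq2 1.42.0, other filters on genes, markers and nuclei, and leaving out a library. Named genes were up to 15 higher and 10 lower (8 were found) with the largest mean log2 ratio, up to 8 per direction between depots or the 3 smallest p, the rule genes and the 4 most expressed and 2 smallest p of each list. Genes named outside this rule, such as those of the matrix lists, ADRB3 and SLC2A4, were chosen after their values were seen. The nuclei, lists and rules were chosen with earlier results of these data known.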

Additional observations from a re-analysis of the deposited data

Results flagged for a closer look

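In the subcutaneous libraries 44 kept nuclei of animal 1 and 4 of animal 2 had at least 3 rule markers but also a UMI of an excluded gene, and so count among the other kept nuclei above. They were deep, with median UMIs of 2639.5 and 4358 against 1533 and 974 in the adipocyte nuclei, and gave 1.72% and 0.673% of UMIs to the adipocyte genes outside the rule. In animal 1, 16 held PDGFRA, 19 PECAM1, 14 CDH5, 8 CSF1R and 5 MRC1. Their part in the levels of the other kept nuclei was not tested.

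Several genes had opposite subcutaneous to intramuscular ratios in the 2 animals, with counting intervals on opposite sides of 1, and with 1 library per animal and depot the difference between the animals was not tested. LPL had a ratio of 0.845 in animal 1 and 3.36 in animal 2, GPAM 0.608 and 2.72, MLXIPL 0.634 and 2.21, and PLIN1 0.806 and 1.45. GPAM, PLIN1 and PLIN4 are genes of the rule that chose the nuclei. The reverse order held for ZBTB16, a glucocorticoid-responsive factor, at 3.67 in animal 1 and 0.265 in animal 2, and for the clock gene PER1 at 1.84 and 0.488. It also held for RARRES2, the chemerin gene, at 2.04 and 0.466, SREBF1, a lipogenic factor, at 1.58 and 0.559, PLIN4 at 1.52 and 0.396, and SRCIN1 at 1.49 and 0.364.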

How the results depend on the processing

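The share of adipocyte nuclei stayed lower in the subcutaneous libraries under the 9 alternatives run, by -34.0 to -62.4 points. Between depots the count of 40 genes was 50 with the animal as a replicate block, with all 40 among them, and the paired fit added ADAMTS4 on the low side. It was 68 without a filter on low counts, 76 with at least 20 UMIs over the sums, 70 with contractile genes kept in, and 0 without nuclei rich in contractile UMIs, where 6 of the 40 were tested, 5 of them at an unadjusted p under 0.05. Leaving out 1 library gave 28 to 229. Against other nuclei the 129 higher and 8 lower genes became 22 and 0 at 8-fold. The higher count was 66 at 2 times the UMI minimum and 235 against endothelial nuclei, and 251 to 356 in 1 library alone. The lower count was 2 with contractile genes kept in, 21 with at least 500 genes, 1 without the deepest nuclei, 33 against progenitor and 82 against endothelial nuclei, 85 without nuclei rich in contractile UMIs, and 40 to 442 in 1 library alone. Without 1 library the log2 fold change between depots ran from -3.49 to 0.42 for LPIN1 and from -1.24 to 0.37 for PLIN4 (highest without the intramuscular library of animal 2), from -1.78 to 0.62 for FABP4 and from -2.75 to 0.53 for DUSP1 (without the intramuscular library of animal 1), and from -1.49 to 0.014 for IGFBP4 (without the subcutaneous library of animal 1), each turning sign. The cause was not tested. HOXB8, with 39 and 2 UMIs, was under edgeR's count filter and is not among the tested genes. The 37 adipocyte nuclei of animal 2, with 43288 UMIs, limit what can be seen there.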
